A study of Mus musculus with 9 samples.

Results

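Among the regions of open chromatin in the pharyngeal mesoderm and heart of control mouse embryos, 1388 of 17164 (8.09%) were assigned to a long noncoding transcript. The deposited list pairs each region with a RefSeq transcript. Rows with identical coordinates were taken as a single region. A region was kept when its transcript carried a noncoding accession (NR_) and its gene symbol did not start with Mir, Snor or Scarna, the prefixes of microRNA and small nucleolar RNA genes. Of 1756 regions with an NR_ accession, 368 were removed by their symbol, 361 of them as Mir genes. The remaining 1388 regions belonged to 849 transcripts and covered 1.52 Mb. The regions assigned to coding transcripts (NM_ accessions), 15408 regions of 10460 transcripts, served for comparison.

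The study asked how Isl1, a LIM-homeodomain transcription factor of the second heart field, and Brg1, the ATPase of the SWI/SNF remodeling complex, shape chromatin during heart development. Accessibility was measured by ATAC-Seq, a method that tags open DNA with sequencing adapters through the Tn5 transposase. Tissue came from embryos at embryonic day 8.75 (6 somites), with 3 libraries each of the wt control, of Isl1-/- embryos and of Isl1Cre+/-/ Brg1fl/fl embryos, in which Cre from the Isl1 locus deletes Brg1 in Isl1-expressing cells and which carry 1 altered Isl1 allele. The file used here is a list of regions common to the 3 control libraries. It has no value per library, and the mutant groups were not analysed here. Read depth is unknown, and all values below describe this list without an error over embryos. A region absent from the list was not shown to be closed. Among markers of the dissected tissue, Isl1, Eya1 and Fgf10 of the pharyngeal mesoderm had a region in the list and Tbx1 had none. Of 8 heart markers, Gata4, Hand2 and Mef2c had a region, whereas Nkx2-5, Tbx5, Tnnt2, Actc1 and Myh6 had none. Markers of other cells were listed too, with 4 of 4 endothelial, 3 of 4 neural, 2 of 3 endodermal and 1 of 3 neural crest genes. These counts take regions assigned at any distance. Within 1 kb of the start, a region was listed for 2 of the heart, 1 of the endothelial, 3 of the neural, 0 of the endodermal and 0 of the neural crest markers.

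Long noncoding RNAs are transcripts that are made by RNA polymerase II, often spliced and capped like messenger RNA, but that encode no long protein. Many start next to a coding gene and run away from it, from a promoter that fires in both directions. Others are made at enhancers, host small nucleolar RNAs or microRNAs in their introns, or act on chromatin themselves, as Xist does on the inactive X chromosome. In the heart, transcripts such as Hand2os1 (listed as Uph), Carmn and Fendrr are known to lie beside or act with cardiac regulators.

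The 849 transcripts were a mixture of gene types. By the RefSeq gene table, 1250 regions (90.1%, 95% Wilson interval 88.4% to 91.5%) belonged to long noncoding RNA genes, 118 (8.50%) to transcribed pseudogenes, 13 to noncoding transcripts of coding genes and 6 to structural RNAs or other noncoding genes, while 1 had no match. Within 1 kb of the assigned start lay 238 of the 1250 regions of long noncoding RNA genes and 25 of the 118 of pseudogenes (21.2%). Few of the transcripts have a descriptive name: 492 of 849 (58.0%) carry a Rik clone symbol and 206 (24.3%) a Gm symbol. Regions were 431 to 5254 bp wide, with a median of 1009 bp.

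To show what these regions contain, the DNA between 2 neighboring starts is given for 5 regions that hold the start of a noncoding transcript and, on the opposite strand, the start of a coding gene. The sequences are from mm9 (NCBIM37), are written 5′ to 3′ along the strand of the noncoding transcript, and run from the base after the coding start to the base before the noncoding start. Capitals mark GGGCGG (the GC box) or CCAAT in either orientation, and CACGTG (the E-box).
5930412G12Rik and Fzd10, 156 bases (chr5:129106563-129106718, minus strand): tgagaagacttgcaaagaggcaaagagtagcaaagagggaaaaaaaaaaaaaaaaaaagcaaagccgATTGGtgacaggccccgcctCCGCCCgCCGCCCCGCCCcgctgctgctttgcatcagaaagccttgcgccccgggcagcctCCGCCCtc
Gt(ROSA)26Sor and Setd5, 120 bases (chr6:113027239-113027358, minus strand): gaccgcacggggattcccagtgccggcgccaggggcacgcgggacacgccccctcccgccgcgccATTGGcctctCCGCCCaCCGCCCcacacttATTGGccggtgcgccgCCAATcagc
5031425E22Rik and Kmt2e, 87 bases (chr5:22940172-22940258, minus strand): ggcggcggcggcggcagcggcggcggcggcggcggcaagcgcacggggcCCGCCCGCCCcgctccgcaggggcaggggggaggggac
2610035F20Rik and Zic2, 182 bases (chr14:122874422-122874603, minus strand): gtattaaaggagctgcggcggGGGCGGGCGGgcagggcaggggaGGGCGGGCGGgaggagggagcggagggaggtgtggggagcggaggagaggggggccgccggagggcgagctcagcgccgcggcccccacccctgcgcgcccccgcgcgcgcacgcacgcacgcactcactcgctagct
Ptgs2os and Ptgs2, 249 bases (chr1:151947005-151947253, minus strand): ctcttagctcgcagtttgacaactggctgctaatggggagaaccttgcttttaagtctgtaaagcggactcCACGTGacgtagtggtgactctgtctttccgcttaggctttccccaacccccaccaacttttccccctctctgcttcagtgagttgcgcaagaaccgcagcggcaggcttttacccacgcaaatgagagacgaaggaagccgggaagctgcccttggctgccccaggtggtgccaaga

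Each of the first 4 intervals holds GC boxes, and those beside Fzd10 and Setd5 hold CCAAT boxes as well. Gt(ROSA)26Sor is the noncoding transcript of the ROSA26 locus, long used for transgenes because it is active in nearly all cells. Fzd10 encodes a Wnt receptor, Kmt2e and Setd5 encode SET-domain proteins, Zic2 a zinc finger factor of the neural plate, and Ptgs2 the inducible cyclooxygenase. The interval at Ptgs2 has no GC box and has 1 E-box.

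The central 300 bp are also given of 5 regions within 1 kb of the start of a well-known long noncoding gene, together with that of the region assigned to Uph, upstream of Hand2. Of these, the Tug1 region also lay 536 bp from a coding start. Capitals mark the GC box, the CCAAT box, the E-box, TATAAA (the TATA box) and TAATTA, a core bound by homeodomain factors, each in either orientation. The strand is again that of the noncoding transcript.
Tug1 (chr11:3548812-3549111, minus strand): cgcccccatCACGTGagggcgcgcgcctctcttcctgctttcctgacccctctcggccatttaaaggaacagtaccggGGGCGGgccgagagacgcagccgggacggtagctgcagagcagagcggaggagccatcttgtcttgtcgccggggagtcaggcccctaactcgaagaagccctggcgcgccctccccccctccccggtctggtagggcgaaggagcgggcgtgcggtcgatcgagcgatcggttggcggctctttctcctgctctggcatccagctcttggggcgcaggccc
Dnm3os (chr1:164146896-164147195, plus strand): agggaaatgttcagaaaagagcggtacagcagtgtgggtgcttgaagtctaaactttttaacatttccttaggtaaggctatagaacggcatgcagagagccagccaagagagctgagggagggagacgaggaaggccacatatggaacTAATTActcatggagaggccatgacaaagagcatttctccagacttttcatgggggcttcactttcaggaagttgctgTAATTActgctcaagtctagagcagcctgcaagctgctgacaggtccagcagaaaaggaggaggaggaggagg
Kcnq1ot1 (chr7:150482468-150482767, minus strand): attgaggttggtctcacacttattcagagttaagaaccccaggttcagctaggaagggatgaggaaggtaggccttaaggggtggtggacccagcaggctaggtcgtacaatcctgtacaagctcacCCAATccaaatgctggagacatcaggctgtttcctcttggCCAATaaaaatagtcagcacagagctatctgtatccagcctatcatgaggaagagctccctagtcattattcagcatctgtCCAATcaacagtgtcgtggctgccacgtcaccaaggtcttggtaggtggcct
Malat1 (chr19:5803446-5803745, minus strand): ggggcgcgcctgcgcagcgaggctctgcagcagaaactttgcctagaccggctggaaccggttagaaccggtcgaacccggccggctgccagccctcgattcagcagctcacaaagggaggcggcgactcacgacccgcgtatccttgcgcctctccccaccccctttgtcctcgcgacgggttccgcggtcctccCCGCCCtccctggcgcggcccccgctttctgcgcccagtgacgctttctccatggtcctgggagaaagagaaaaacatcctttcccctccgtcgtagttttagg
Jpx (chrX:100688848-100689147, plus strand): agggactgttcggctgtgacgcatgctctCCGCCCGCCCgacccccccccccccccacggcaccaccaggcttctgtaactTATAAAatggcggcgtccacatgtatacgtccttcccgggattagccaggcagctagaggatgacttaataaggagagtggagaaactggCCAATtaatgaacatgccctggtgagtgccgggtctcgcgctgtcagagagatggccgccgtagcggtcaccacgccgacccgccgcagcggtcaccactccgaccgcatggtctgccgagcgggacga
Uph (chr8:59791248-59791547, minus strand): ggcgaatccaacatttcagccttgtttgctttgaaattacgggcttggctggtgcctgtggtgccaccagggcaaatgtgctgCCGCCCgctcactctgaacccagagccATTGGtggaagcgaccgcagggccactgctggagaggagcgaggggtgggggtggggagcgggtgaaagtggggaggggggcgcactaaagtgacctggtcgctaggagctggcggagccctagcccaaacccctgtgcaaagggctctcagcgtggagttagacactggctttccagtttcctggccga

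The center of the Tug1 region held 29 CpG in 300 bp, that of Malat1 30 and that of Jpx 26, the last also with a TATA box. The center at Dnm3os held 3 CpG and 2 copies of TAATTA, and the center at Kcnq1ot1 held 3 CpG and 3 CCAAT boxes. The Uph center, 8259 bp downstream of the Uph start and so not at its promoter, held 13 CpG. The centers of these regions thus ranged from CpG-rich to CpG-poor DNA. Over the whole region, the CpG frequency was 11.7 per 100 bp at Tug1, 8.03 at Malat1, 4.15 at Jpx, 2.54 at Kcnq1ot1 and 0.88 at Dnm3os. The Dnm3os and Malat1 regions were centered 709 and 923 bp upstream of the start, so their centers do not show the DNA at the start itself.

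Noncoding regions lay far from the start they were assigned to. Only 272 of 1388 (19.6%, 95% Wilson interval 17.6% to 21.8%) were centered less than or equal to 1 kb from that start, compared with 8765 of 15408 coding regions (56.9%). A further 154 lay at 1 to 10 kb (11.1%, coding 7.31%), 553 at 10 to 100 kb (39.8%, coding 22.6%) and 409 beyond 100 kb (29.5%, coding 13.2%). The median distance was 37586.5 bp for noncoding and 336 bp for coding regions. Regions were upstream of the noncoding start in 48.7% of cases, so neither side was favored by much.

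**Figure D1:**
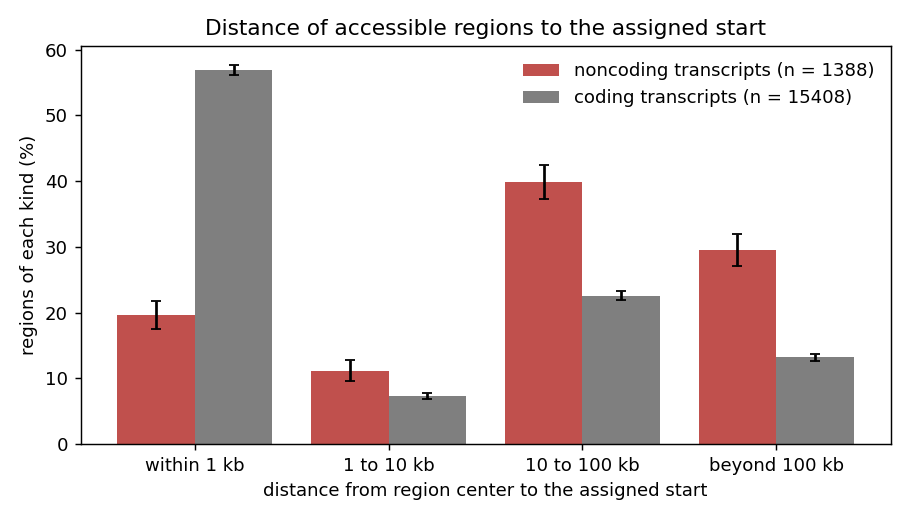
Share of regions (%) in 4 classes of distance between region center and assigned start, for regions of noncoding (red) and coding (gray) transcripts, with 95% Wilson intervals that cover counting error only. Within 1 kb the share is 19.6% for noncoding and 56.9% for coding transcripts, and beyond 100 kb it is 29.5% and 13.2%.

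Because the list has no replicate values, the kinds of region were compared within each of 20 chromosomes (19 autosomes and X) by a two-sided exact sign test, with Benjamini-Hochberg adjustment over 7 comparisons. Chromosomes are not embryos, and the test measures only whether a difference recurs across the genome. The share within 1 kb was lower for noncoding regions on 20 of 20 chromosomes, with a difference of −36.2 ± 5.77 percentage points (mean ± SD, adjusted p = 6.68e-06, exact sign test). It ranged from 10.6% to 41.0% for noncoding and from 50.6% to 71.0% for coding regions, so the ranges of the chromosomes did not overlap. The share beyond 100 kb was higher on 19 of 20 chromosomes, by 14.2 ± 7.95 percentage points (adjusted p = 9.35e-05, exact sign test). Noncoding regions made up 4.30% of the regions of chromosome 19 and 12.9% of those of chromosome 14, the lowest and highest shares of the 20 chromosomes.

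At the noncoding starts, a coding gene was often the neighbor. Of the 272 promoter regions (center within 1 kb of the assigned start), 120 (44.1%, 95% Wilson interval 38.3% to 50.1%) also lay within 1 kb of the start of a different, coding gene, hereafter shared promoters. The same was true of 9.80% of promoter regions of coding transcripts. The share was higher for noncoding regions on 20 of 20 chromosomes, by 34.0 ± 15.7 percentage points (adjusted p = 6.68e-06, exact sign test). Another 27 promoter regions had a coding start at 1 to 10 kb, and 125 (46.0%) had none within 10 kb. Noncoding promoters thus fell mainly into those beside a coding start and those far from any. Some shared promoters were assigned to transcribed pseudogenes, which stay in the counts. The region of BC002163, now Ndufs5-ps, was centered 26 bp from the start of Ndufs5, after which it is named. With long noncoding RNA genes only, 45.4% of promoter regions were shared.

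**Figure D2:**
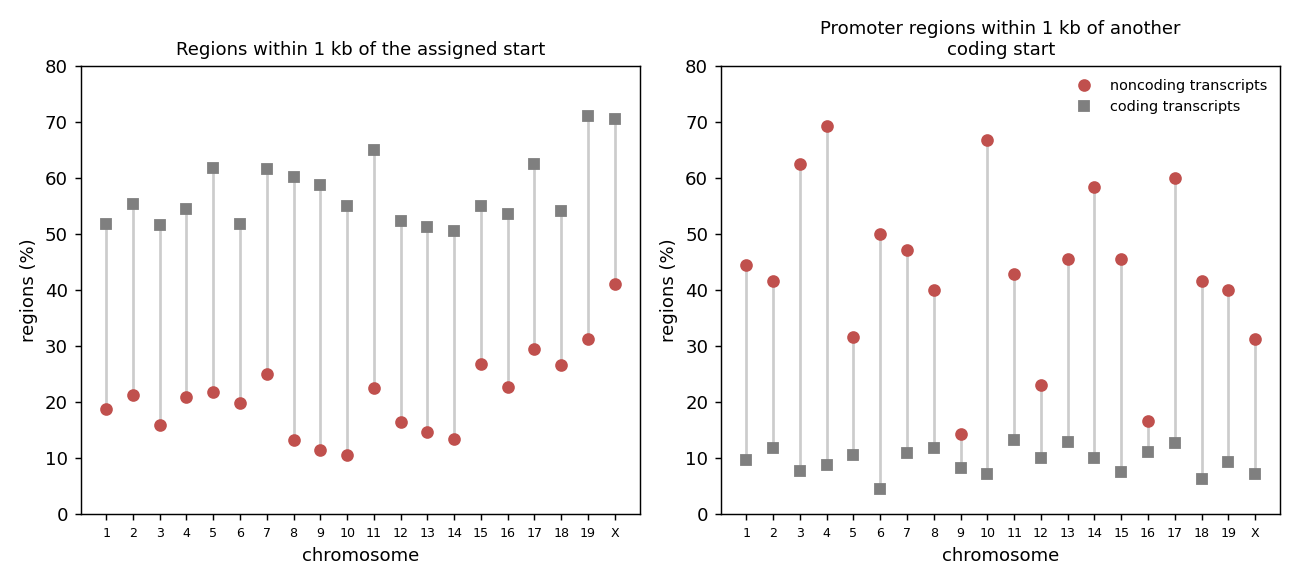
Share of regions (%) on each of 19 autosomes and X, for noncoding (red circles) and coding (gray squares) transcripts, with a line joining the pair. Left, regions within 1 kb of the assigned start, where the noncoding share is lower on 20 of 20 chromosomes; right, promoter regions within 1 kb of another coding start, where it is higher on 20 of 20.

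The pairs of starts were mostly divergent. Strand could be assigned for 252 of the 272 promoter regions, and in 111 the noncoding start itself was within 1 kb of a coding start. The transcripts were on opposite strands in 105 of these 111 (94.6%, 95% Wilson interval 88.7% to 97.5%) and on the same strand in 6. The same-strand pairs include the transcribed pseudogenes Gm13363 beside Ptp4a1 and Gm12669 beside Glrx3. In 72 of the 105 opposite pairs the transcripts ran away from each other, with a median of 148 bp between the starts (quartiles 95 and 219.5 bp, range 20 to 704 bp). In the other 33 the starts lay within each other's transcription unit, as at Gata6, so that the transcripts overlap at their 5′ ends, with a median of 252 bp between starts.

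**Figure D3:**
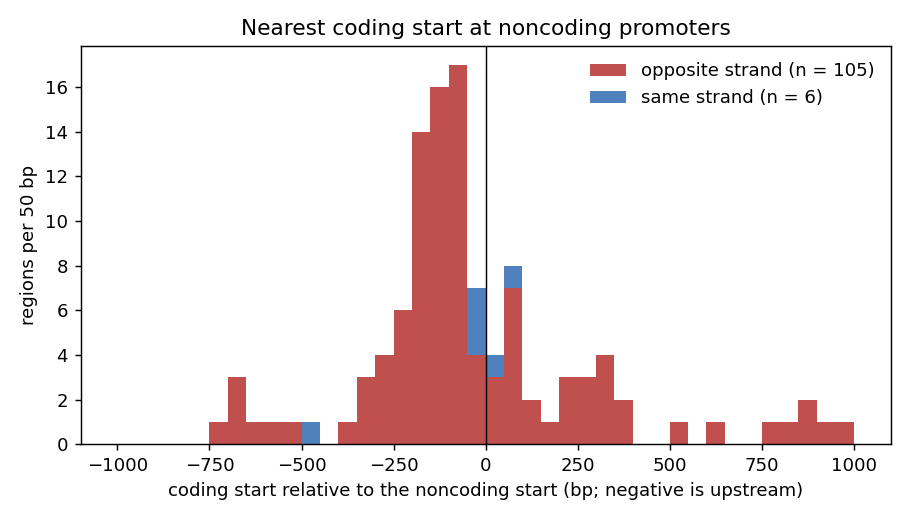
Position of the nearest coding start relative to the noncoding start (bp, negative values upstream of the noncoding start), as the number of promoter regions per 50 bp, for coding genes on the opposite (red, n = 105) and the same strand (blue, n = 6). The highest bars are at offsets just upstream of the noncoding start, where 72 pairs run away from each other with a median gap of 148 bp.

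In most shared promoters the coding gene was absent from the list under its own name. Of the 120 coding neighbors, 93 (77.5%, 95% Wilson interval 69.2% to 84.1%) had no region assigned to them, so the open region near their start is listed only under the noncoding transcript. Each region is counted under 1 transcript, and 73.9% of all coding transcripts in the list hold 1 region. That value covers only transcripts with a region, so it is not a measure to set 77.5% against. The share of all coding genes without a region was not computed, so 77.5% is not read as a trait of shared promoters. The region center was 91.5 bp from the noncoding start and 173.5 bp from the coding start (medians), and it was nearer to the coding start in 20 of 120. The noncoding start is the assigned one, so this order is largely set by the assignment. The neighbors without a region of their own included Gata6, a zinc finger factor of heart and endoderm, Zic2, Sox21, a SoxB factor of neural progenitors, Fzd10, Kmt2e, Setd5, Rgma, an axon guidance molecule, and Socs2, an inhibitor of cytokine signaling. These 8 genes were chosen after the values were seen. Foxd2, a forkhead factor of paraxial mesoderm, Negr1, a neuronal adhesion protein, and Thbs1, a matrix glycoprotein, did have regions of their own, with 1, 3 and 2.

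Shared promoters were wide and CpG-rich. Their median width was 1462.5 bp and their median CpG frequency 6.61 per 100 bp, against 1149.5 bp and 4.01 per 100 bp in the 152 noncoding promoters without a coding start within 1 kb. These values are a description without a test. Over all 272 noncoding promoter regions, the median CpG frequency was 5.16 per 100 bp, compared with 5.95 in coding promoters, and it was lower on 16 of 20 chromosomes, with a difference of −0.57 ± 0.83 (mean ± SD, adjusted p = 0.0207, exact sign test). Among regions of at least the median width of the list this difference missed the threshold (−0.33, adjusted p = 0.278, exact sign test). The width of promoter regions did not differ detectably, with medians of 1271.5 and 1294 bp and a difference of −7.05 ± 156 bp over chromosomes, 10 of 20 in each direction (adjusted p = 1, exact sign test).

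Noncoding regions became narrower and poorer in CpG with distance. Their median width was 1271.5 bp within 1 kb of the start, 1020 bp at 1 to 10 kb, 978 bp at 10 to 100 kb and 928 bp beyond 100 kb, and the median CpG frequency in the same classes was 5.16, 1.77, 1.35 and 0.89 per 100 bp. Coding regions followed the same order, from 1294 to 916 bp and from 5.95 to 0.97 per 100 bp. Beyond 10 kb the median width was 951 bp for noncoding and 934 bp for coding regions, a difference of 21.2 ± 49.3 bp over 20 chromosomes (mean ± SD, adjusted p = 0.135, exact sign test). The median CpG frequency was 1.13 and 1.26 per 100 bp, a difference of −0.12 ± 0.24 that was negative on 15 of 20 chromosomes and missed the threshold (adjusted p = 0.0579, exact sign test). A missed threshold does not show that the kinds are equal.

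**Figure D4:**
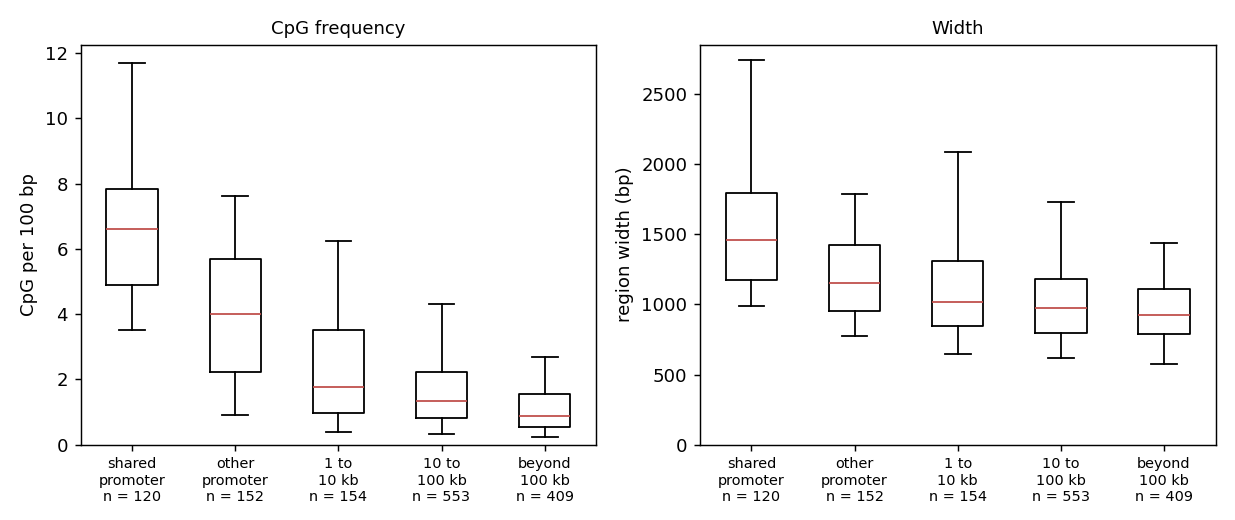
CpG per 100 bp (left) and width in bp (right) of the 1388 noncoding regions, in shared promoters, other promoters and 3 classes of distance from the assigned start. Boxes span the quartiles, red lines are medians and whiskers reach percentiles 5 and 95; median CpG is 6.61 in shared promoters, 4.01 in other promoters and 0.89 beyond 100 kb.

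The distal regions were mainly intergenic. Of 962 noncoding regions beyond 10 kb, 722 (75.1%) had their center outside any annotated gene, compared with 57.2% of 5517 distal coding regions. A gene here is any GENCODE gene of the mm9 build, and a coding region inside its own gene is not intergenic. GENCODE holds the assigned gene of 46.5% of noncoding and of 98.8% of coding regions, so introns of unlisted noncoding genes count as intergenic. The share inside a coding gene other than the assigned one went the other way. It was 20.5% (197 of 962) for distal noncoding and 10.4% for distal coding regions. For 870 of the 962 (90.4%) the assigned start was closer than any coding start, and for distal coding regions the assigned start was closer than any other coding start in 93.3%. The kinds of region are defined by this assignment, so these shares describe how the list was made and are not an independent result. The median distance to the nearest coding start was 182629 bp (quartiles 79817 and 411501 bp). Of the distal regions, 15 of 962 noncoding and 45 of 5517 coding ones lay within 1 kb of the start of another coding gene.

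Short sequence motifs were counted as a description of each distance class. In the central 300 bp of regions, GGGCGG in either orientation was found in 60.3% of noncoding and 69.5% of coding promoter regions, and in 13.5% and 16.8% of regions beyond 10 kb. AGATAA, the core bound by GATA factors, showed the opposite order, with 2.21% and 3.26% at promoters and 15.7% and 15.4% beyond 10 kb. TAATTA was in 2.94% of noncoding and 0.90% of coding promoters and in 9.77% and 8.85% of distal regions. CCAAT was near 1 level throughout, between 31.8% and 34.1%. CACGTG was in 11.8% of noncoding and 8.04% of coding promoters and in 4.16% and 4.53% of distal regions. TATAAA was in 4.78% and 2.98% of promoters and in 10.2% and 10.3% of distal regions. A match is a string of letters and not a bound site.

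Transcripts with a known role in heart or mesoderm were partly represented. Of 12 such genes in a list, 7 had a region and 5 had a region within 1 kb of the start. Another 7 of the 21 names in that list matched no gene and were left out. 5033428I22Rik, now Hdnr, which has regions at Hand2 described below, is not in these counts. Dnm3os, the host of a microRNA cluster within Dnm3, had a region of 909 bp centered 709 bp upstream of its start, with 0.88 CpG per 100 bp. Carmn, a smooth muscle and heart transcript, had a region of 938 bp 859 bp upstream. Malat1, an abundant nuclear RNA, had a region of 996 bp 923 bp upstream. Kcnq1ot1, the paternally expressed antisense RNA of the Kcnq1 imprinted domain, had a region of 1221 bp centered 165 bp upstream. The region of H19, an imprinted RNA of the Igf2 domain, was 33044 bp upstream of the start. No member region was assigned to Bvht, Fendrr, Meg3, Mhrt or Miat, but Meg3 had a region 13324 bp upstream under a coding accession.

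The Hand2 locus held 5 noncoding regions. Hand2 is a basic helix-loop-helix factor required for the right ventricle and the pharyngeal arches. Uph, now named Hand2os1, is transcribed away from Hand2. Its region on chromosome 8 (59790739 to 59792055, mm9) was 1317 bp wide and 8383 bp from the Hand2 start. On the other side, 5033428I22Rik, now Hdnr, had 4 regions at 7548, 13107, 20151 and 32850 bp from the Hand2 start, 1013 to 1827 bp wide. All 5 had between 3.47 and 4.71 CpG per 100 bp, above the noncoding medians of 1.77 at 1 to 10 kb and 1.35 at 10 to 100 kb from the start. Hand2 itself had 1 region, at its promoter.

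The Gata6 locus held 2. A region of 1569 bp on chromosome 18 (11051936 to 11053504, mm9) was centered 155 bp upstream of 1010001N08Rik, now Gata6os, and 212 bp from the Gata6 start, with 5.42 CpG per 100 bp. The 2 starts were 57 bp apart on opposite strands, with overlapping transcripts. A further region of 573 bp lay 77187 bp upstream of 1010001N08Rik. Gata6 had no region under its own name.

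Across 50 coding regulators of heart and pharyngeal development, a list chosen after the values were seen, 16 were the nearest coding gene to 1 or more noncoding regions, 46 regions in all (3.31% of 1388). The same share over all coding genes was not computed, so these counts cannot be called high or low. Only the Gata6 region was within 1 kb of the regulator. Crnde had a region of 1420 bp centered 53 bp upstream of its start and 1623 bp from the start of Irx5, an Iroquois factor of the heart, which had no region of its own. Meis2, a TALE homeodomain factor, had 3 regions of 2810405F15Rik at 10111 to 292642 bp. Sox9, a factor of cartilage and heart cushions, had 5 regions of 3 transcripts at 26498 to 380707 bp. Fgf10, a growth factor of the second heart field, had 3 at 40442 to 120224 bp, and Nr2f2, an atrial nuclear receptor, 4 at 29016 to 821643 bp. Cited2, a CBP/p300 partner, had 6 regions of Gm20125 at 389329 bp or more, and Zeb2, a zinc finger repressor, 7 regions of 1700019E08Rik at 585176 bp or more. Nearest is a matter of position, and no contact with these genes was measured.

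Transcripts named after a coding partner (ending in os, as or ot under the deposited or the current symbol) numbered 46, with 63 regions. A region within 1 kb of the noncoding start was present for 21 of them, and within 1 kb of the partner's start for 16. In 13 of these 16 the partner had no region of its own. The same share over all coding genes was not computed, so this count cannot be called high or low. Among those with a transcription factor as partner, Foxd2os had a region of 3024 bp centered 115 bp upstream of its start and 276 bp from that of Foxd2, with 7.44 CpG per 100 bp. Zfp652os had a region of 1418 bp at −122 bp, 203 bp from the start of Zfp652, which had no region of its own. Otx2os1 had a region of 783 bp 40470 bp downstream, and Otx2, a homeodomain factor of the anterior head, had none. Sox5os3 had 4 regions, 51485 to 218323 bp from its start, while Sox5 had 7.

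Of 19 hosts of small nucleolar RNAs, 9 had a noncoding region and 8 had it within 1 kb of the start. Gas5 shared a region of 1772 bp with Zbtb37, whose start was 14 bp from its center. Snhg18 shared one of 1086 bp with Sema5a at 85 bp, and Snhg9 one of 1130 bp with the ribosomal protein gene Rps2 at 106 bp. The region of Snhg7, of 1006 bp, was 6843 bp upstream. Snhg11 and Snhg16 had regions under coding accessions. Of 13 well-known long noncoding RNAs in a further list, 7 had a noncoding region and 6 had it within 1 kb of the start. Tug1 had the most CpG-rich of their promoters, 11.7 per 100 bp over 1104 bp, 536 bp from the start of Morc2a. Dleu2 had the widest, of 2571 bp, and Dancr had 1 of 1150 bp centered 47 bp from its start. Neat1, Norad and Sox2ot had none, and Pvt1 had regions at 156 and 67459 bp under a coding accession.

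Of 5 transcripts linked to X inactivation or the X chromosome, 4 had a region. Firre, which anchors chromatin of the X chromosome, had a region of 775 bp at −97 bp. Jpx, an activator of Xist, had one of 1447 bp at 100 bp. Xist had one of 857 bp centered 1371 bp inside its transcript, and Ftx had 2, at 1282 and 6776 bp downstream of its start. Tsix, the antisense partner of Xist, was not assigned any, although the Xist region also lies within the Tsix gene. The sex of the embryos was not given in the sources used here.

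Among 13 imprinted noncoding genes, 4 had a region. Besides H19 and Kcnq1ot1, these were Peg13, within an intron of Trappc9, with 1789 bp at 540 bp, and Nespas, antisense in the Gnas domain, with 1341 bp at −197 bp. Of 5 hosts of microRNAs, 4 had a noncoding region, including A330023F24Rik, the host of Mir29 genes, with 896 bp at −360 bp. The other host, C130071C03Rik, had regions at 2898 and −12743 bp under a coding accession. Of 19 structural RNAs, 4 had a region. Rpph1 and Rmrp, the RNAs of RNase P and RNase MRP, had 1189 bp at 19 bp and 1635 bp at −128 bp, and Vaultrc5, a vault RNA, had 885 bp at 15 bp. Terc, the RNA of telomerase, had 2 regions, both over 10 kb away. None of 12 noncoding transcripts of the Hox clusters had a region assigned to it, and any region there assigned to a coding gene is not counted here. Over all lists, 33 of 88 genes had a region under a noncoding accession and 26 had it within 1 kb of the start. A further 5 (C130071C03Rik, Meg3, Pvt1, Snhg11 and Snhg16) had regions under coding accessions only, which for Pvt1, Snhg11 and Snhg16 were within 1 kb. The 26 promoter regions had a median CpG frequency of 5.24 per 100 bp beside 5.16 over all 272. The share of all noncoding genes that have a region was not computed, so the counts per list cannot be called high or low.

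The number of regions per transcript was small. It averaged 1.63 ± 1.14 (SD over 849 transcripts), with 551 transcripts (64.9%) holding 1 region, 163 holding 2 and 24 (2.83%) holding 5 or more. The coding transcripts averaged 1.47 ± 1.10, with 73.9% holding 1 and 2.57% holding 5 or more. The maximum was 10 regions for noncoding and 21 for coding transcripts.

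The 6 noncoding transcripts with the most regions had them spread over 0.36 to 1.39 Mb. Most regions are listed under a start close to them, so many far regions gather only where few other starts lie. This setting is therefore largely set by the assignment, and coding transcripts with as many regions were not compared. 4930486I03Rik on chromosome 1 had 10 regions over 0.58 Mb, 608 to 1480 bp wide, of which 5 were within introns of annotated genes, and Pkhd1 was the nearest coding start for 9. Gm1653 on chromosome 3 had 9 over 0.66 Mb near Adgrl2, a latrophilin, including 1 of 709 bp centered 115 bp upstream of its start. 1600027J07Rik on chromosome 8 had 8 over 0.36 Mb near Cdh11, a mesenchymal cadherin, all at least 303273 bp from its start. Gm30731 on chromosome 4 had 8 over 0.996 Mb with Pou3f2, a POU factor of neural cells, as nearest coding gene to each, the closest at 6836 bp. 4930503O07Rik on chromosome 1 had 8, of which 5 were nearest to Plxna2, a semaphorin receptor of the outflow tract, and 3 to Camk1g. 1700019E08Rik on chromosome 2 had 8 over 1.39 Mb, of which 7 were nearest to Zeb2 and 1 to Acvr2a. In 5 of the 6 transcripts no region lay within 1 kb of the start.

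**Figure D5:**
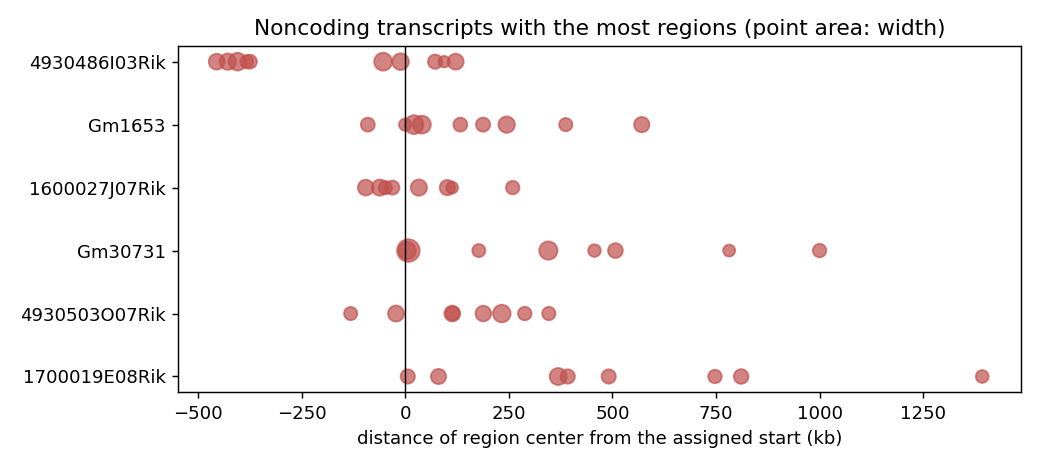
Distance of each region center from the assigned start (kb, positive values downstream) for the 6 noncoding transcripts with the most regions, with point area proportional to region width. The regions spread over 0.36 to 1.39 Mb, and only Gm1653 has a region within 1 kb of its start.

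Of the 5 widest noncoding regions, 4 lay beside a coding start. The widest, of 5254 bp on chromosome 5, was centered 1439 bp downstream of the start of 4932441J04Rik and 1541 bp from that of Pcdh7, a protocadherin, and the starts were 102 bp apart on opposite strands. The next, of 3815 bp, was 118275 bp upstream of 2810429I04Rik and 178047 bp from the start of Gdi2, with 6.34 CpG per 100 bp. 5031425E22Rik had 3394 bp beside Kmt2e, 5930412G12Rik (Fzd10os) 3181 bp beside Fzd10, and LOC432842 3079 bp beside Nrg3, a neuregulin. The last 3 coding genes had no region of their own. The region farthest from its assigned start was 1485953 bp upstream of 4930553E22Rik, and the next were 1472475 bp from Gm20268, 1392309 bp from 1700019E08Rik, 1367941 bp from 4930474G06Rik and 1125512 bp from 4930474H20Rik. They were 457 to 990 bp wide.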

How the data were processed

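The study made 3 ATAC-Seq libraries per genotype from dissected pharyngeal mesoderm and heart, and the labelled genotype set the groups. Per its methods, the authors aligned reads to mm9 with bowtie2, filtered them with samtools, removed duplicates with Picard 1.136, called peaks in each library with MACS14 and a fixed shift, removed blacklisted regions and kept peaks common to the replicates with bedtools 2.15. The deposited values are region start and end and the distance to the assigned start, all in bp, with a RefSeq transcript and symbol. They are not counts. The tool that assigned transcripts is not given in the sources used here for these regions. The effect of the fixed shift on region width was not tested, and no correction for the Tn5 insertion offset is stated. A common region has the coordinates of 1 library.

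Positions were taken as 1-based and closed, and 12 of the noncoding regions had been listed more than once. Names and gene types came from the RefSeq table of GRCm38.p6, matched for 1387 of 1388 regions (1371 by accession), and no coordinate was taken from it. Sequence and genes came from NCBIM37 (the build of mm9) with GENCODE. A coding start was one of a protein-coding GENCODE gene that is coding in RefSeq too and is not the assigned gene. For coding regions that comparison used those whose own gene is in GENCODE. The strand of a noncoding transcript came from deposited distances that point to 1 start within 3 bp (823 regions), from GENCODE (311) or from the RefSeq promoter table (187), and was unknown for 67. Comparisons used two-sided exact sign tests over chromosomes with at least 5 regions of each kind, with Benjamini-Hochberg adjustment over 7 comparisons at a threshold of 0.05. The smallest unadjusted p that 20 chromosomes allow is 1.91e-06. The test was checked on simulated data for 1 of the 7 comparisons only, the median width beyond 10 kb. Widths were shuffled over all regions, and the simulated differences were larger than the one found. The share and CpG comparisons were not simulated. Motifs were searched in the central 300 bp on both strands. None of the 6 strings searched contains another.

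The members and the gene lists were chosen with earlier results of these data known, and the list of 50 regulators after the values were seen. Listed names that matched no gene in the RefSeq table were left out of the counts. Genes were named when they belonged to a list and had a region, had a transcription factor as named partner, were among the 5 transcripts with the most regions (6 with ties), or held 1 of the 5 widest or 5 farthest regions. Coding neighbors beyond this rule are said to be chosen after their values were seen, and the 5 pairs whose sequences are shown were chosen likewise. The result of 1 tissue marker is not reported here. Python 3.11.15, numpy 2.4.6, pandas 2.3.3, scipy 1.17.1 and matplotlib 3.10.9 were used.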

Additional observations from a re-analysis of the deposited data

How the results depend on the processing

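Of 37 alternatives computed, 31 kept the direction and the side of the threshold (or, for counts, stayed within 1.5 times). The differences in the share within 1 kb of the assigned start, in the share beyond 100 kb and in the share of shared promoters were past the threshold under every alternative run, with values of −39.8 to −35.2, 12.9 to 14.5 and 29.8 to 41.9 percentage points. The difference in median width of promoter regions, far from the threshold, changed sign to 1.4 bp with all rows as deposited, 20 bp with long noncoding RNA genes only and 60.9 bp among regions of at least the median width. Among those wide regions the CpG difference within 1 kb was −0.33 and no longer past the threshold (adjusted p = 0.278, exact sign test), and 497 noncoding regions remained by construction. With long noncoding RNA genes only, the CpG difference beyond 10 kb was −0.12 and past the threshold (adjusted p = 0.0207, exact sign test). Apart from the construction named, the cause was not tested. No paired analysis was possible because the list is a single consensus of the 3 control libraries, and for the same reason no library could be left out. Depth is unknown, so weakly open sites cannot be told from closed ones.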
